A study of Schizosaccharomyces japonicus with 2 samples.

Results

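The first 120 kb of supercontig 4 of Schizosaccharomyces japonicus, a fission yeast, were described by the small RNA mapped there. The members are distinct positions, each a start, an end and a strand, with a mapped span of 21 to 28 nt and a leftmost base from 1 to 120000. Replicate 1 held 14991 such positions of 223429 in the whole series, and replicate 2 held 46295 of 474395. Together they listed 52928 different positions of 594345. The region was chosen because small RNA was dense on it, so its density and its strand pattern are given as a description and with no test. The samples are 1 group, wild-type cells of strain yFS275 harvested in log phase, sequenced as 2 libraries called replicate 1 and replicate 2. The labels do not say whether separate cultures were used, so their SD could reflect technical spread alone. No treatment, mutant or control library was at hand. A two-sided exact permutation test over 2 libraries cannot give a p below 0.5, so values of the libraries are set side by side.

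In fission yeasts, Dicer cuts double-stranded RNA into short duplexes with 3′ overhangs, and Argonaute proteins carry one strand of each duplex. In Schizosaccharomyces pombe, such RNA guides the silencing of centromeric repeats. In S. japonicus, retrotransposons lie in clusters near centromeres and telomeres, and they are known as sources of small RNA. No base sequence of the assembly used for the reads was at hand, so neither the 5′ nucleotide nor the genes or repeats of supercontig 4 were analysed here.

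The region was dense in both libraries. Values are given in RPM, reads of every 1000000 outside bases 1 to 37000 of supercontig 3. Those bases, called the block, took 71.1% and 29.5% of the reads of 21 to 28 nt. The region held 45177 of 889190 reads in replicate 1, or 5.08% (95% Clopper-Pearson interval 5.04 to 5.13), and 250212 of 2457514 reads in replicate 2, or 10.2% (10.14 to 10.22). The mean share was 7.63% ± 3.61 (SD, n = 2). These intervals cover counting error only, since the reads carry no molecular identifiers, and the libraries lie far outside each other's interval. Per kb the region had 423 RPM in replicate 1 and 848 RPM in replicate 2, against 82.1 and 77.6 RPM in the rest of the series without the block. That is a ratio of 5.16 in replicate 1 and 10.9 in replicate 2, with a mean of 8.04 ± 4.08 (SD, n = 2). Counted as distinct positions per kb, the ratio was 8.86 and 11.4. The region was less dense than supercontig 5, at 0.724 and 0.523 times its RPM per kb. Set against the remaining bases of supercontig 4, which follow it directly, the ratio was 0.324 in replicate 1 and 1.41 in replicate 2, so the libraries fell on different sides of 1.

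Of the 120 windows of 1 kb, 72 reached 100 RPM in each library, which is 88.9 reads in replicate 1 and 246 reads in replicate 2. Across the series 5.18% of 11703 windows reached that level, and the region was picked for it. In 61 windows neither strand fell under 10% of the reads in either library (3.88% of windows in the series), and these are called both-strand. The minor strand held under 1% in 3 windows, called one-strand (0.35%), and 8 windows lay in between (0.948%). From reads with a single best place alone, with RPM taken of such reads only, 25 windows were dense and 21 both-strand. The limit of 100 RPM then stood for fewer reads than stated above, so these numbers are not at the same read cutoff. With the block kept in the totals of all reads, 42 windows were dense and 36 both-strand. Only 12 windows were needed to reach 50% of the reads of the region in replicate 1 and 15 in replicate 2, and 49 and 52 windows held 90%. For 50% the mean number was 13.5, which became 20.5 when every position counted once and 5 when reads with a score of 0 were dropped. Between the 2 windows at the chosen limit the density changed abruptly. The last window inside, bases 119001 to 120000, had 62 and 597 reads, and the first one outside had 2476 and 1940 reads. Further inside, bases 112001 to 113000 had 2399 and 4095 reads, so dense windows lay on both sides of the limit.

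**Figure D1:**
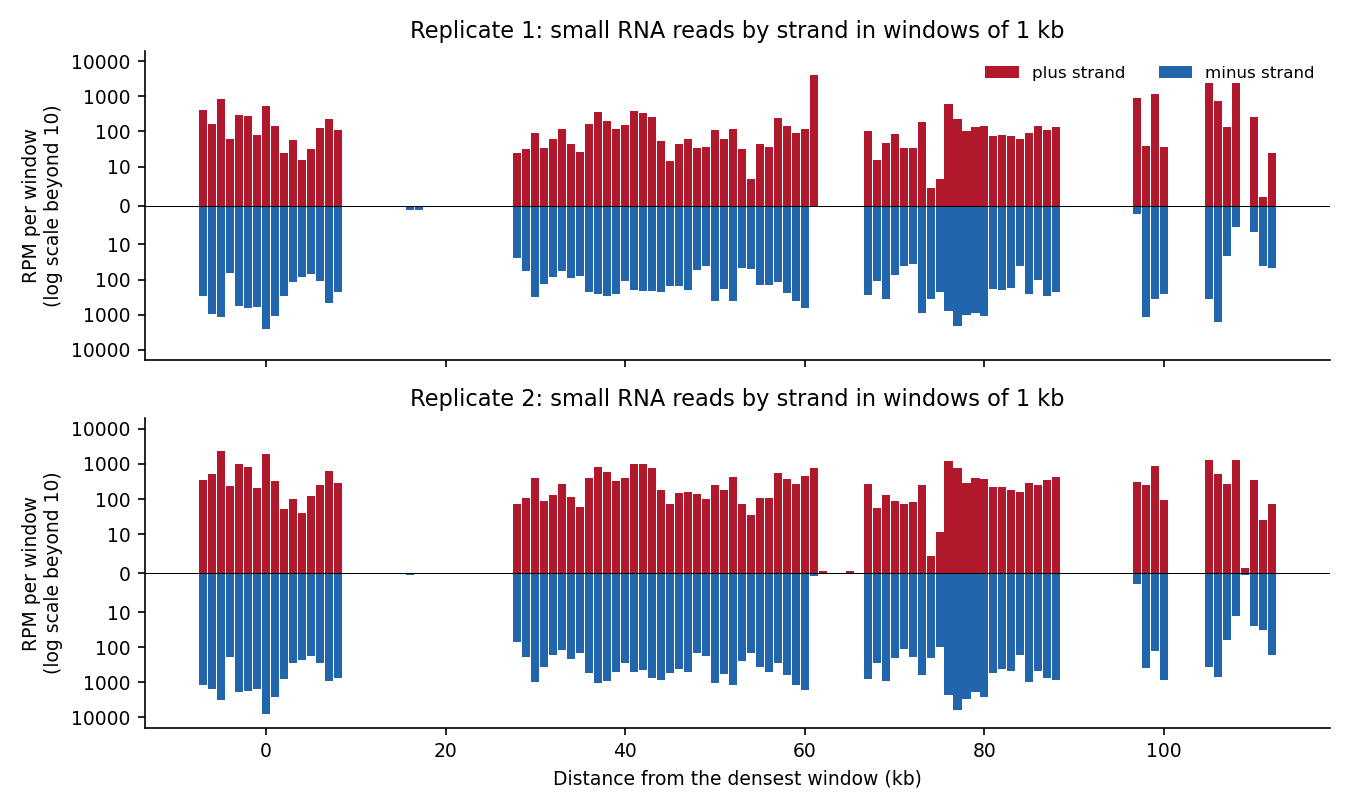
RPM in each window of 1 kb (log scale beyond 10), plus strand upwards and minus strand downwards, for each library, by distance in kb from the densest window. Blocks of reads on both strands alternate with stretches without reads, and the bars of the 3 one-strand windows rise on the plus strand with next to nothing below them.

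Small RNA lay in 6 runs of windows separated by stretches with almost none. Leaving out windows with fewer than 10 reads in each library, the runs covered bases 1 to 16000, 35001 to 69000, 74001 to 96000, 104001 to 108000, 112001 to 116000 and 117001 to 120000. The 37 windows between them held 2 reads in replicate 1 and 7 reads in replicate 2 in all. No read of either library fell in 32 of the 120 windows, or 26.7%, against 12.6% of windows in the whole series. The longest stretch without a read in either library ran for 10361 nt, from base 24918 to 35278. A stretch of 9046 nt, from base 95873 to 104918, was empty in both libraries and had the same first and last base in each.

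Several edges of the runs were sharp and lay at the same or nearly the same base in the libraries. Reads ended at base 68516 in both, at base 95872 in both, and at base 107328 in both, and they began at base 104919 in both. Within 200 nt inside the edge at base 68516 there were 1228 reads in replicate 1 and 383 in replicate 2. At the edge at base 95872 these numbers were 101 and 1244, and at the edge at base 104919 they were 791 and 1075. The run that starts at base 112494 in replicate 1 and 112453 in replicate 2 had 2107 and 3354 reads in its first 200 nt, and it ended at base 115168 and 115169. The other inner edges, at bases 15685, 35344, 74355 and 117078 of replicate 1, differed by 23 to 69 nt between the libraries. Few reads marked some of them. Within 200 nt there were 13 and 96 reads at base 35344, and 7 and 33 at base 117078. At bases 15685 and 74355 there were 81 and 580, and 71 and 451. Whether the empty stretches hold sequence that a read could map to was not analysed here. Reads covered 50.2% of the bases of the region in replicate 1 and 60.8% in replicate 2, and 72.6% and 87.7% within the runs. Bases covered on both strands made up 21.1% and 43.3% of the region.

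Joining dense windows across at most 1 other window gave 8 loci. The locus at bases 1 to 16000, at the end of the supercontig, held the most reads, 24.9% of those of the region in replicate 1 and 34.3% in replicate 2. Its 16 windows included 14 both-strand windows, 26.6% and 26.3% of its reads lay on the plus strand, and 58.7% and 58.1% had a mapping score of 0. The score 0 is taken here to mark sequences with several equally good places, each listed at 1 of them. The locus at bases 80001 to 96000 came next, with 21.8% of the region in replicate 1 and 26.3% in replicate 2. In this locus the minus strand dominated, and the plus share was 19.8% and 19.95%.

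The locus at bases 37001 to 55000 was the longest and, window by window, the most even between strands, with a minor-strand share of 34.1% and 34.5%. It held 11.4% and 15.97% of the reads over 18 dense windows, of which 17 were both-strand, and its plus share was 43.5% and 42.6%. Nearly all of its reads, 93.3% and 94.2%, had several places. The short locus at bases 57001 to 60000 held 2.50% and 3.65%, and that at bases 74001 to 78000 held 2.11% and 2.73%. All 3 windows of the first and all 4 windows of the second were both-strand, and their plus shares were 19.4% to 23.4%.

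The remaining loci held windows with reads on mainly 1 strand. The locus at bases 62001 to 69000 had 6 both-strand windows and ended in a one-strand window. Because that last window was large in replicate 1, the plus share of the locus was 74.1% in replicate 1 and 35.9% in replicate 2. Bases 104001 to 108000 held 7.73% and 2.85% of the reads of the region, with a plus share of 53.9% and 52.0% that was a sum of windows dominated by opposite strands. Bases 112001 to 118000 held 15.3% and 4.802%, and their plus share was 74.6% and 76.5%. In these last loci 98.3% to 99.9% of the reads had several places.

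The 10 windows with the highest mean of both libraries, chosen by a fixed rule, lay in 4 neighbourhoods. Bases 7001 to 8000 were highest, with 2671 reads (3004 RPM) in replicate 1 and 24695 reads (10049 RPM) in replicate 2. These reads fell on 818 and 2025 positions, so they were spread over many sequences, and the most abundant position held 4.38% and 5.45%. Their plus share was 17.2% and 19.3%. Next were bases 84001 to 85000, with 2287 and 6788 RPM and a plus share of 10.03% and 11.04%, close to the limit of the both-strand class. Bases 2001 to 3000 had 2004 and 5515 RPM, with 41.6% and 41.4% on the plus strand.

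Then came the one-strand window at bases 68001 to 69000, with 4181 RPM in replicate 1 and 763 RPM in replicate 2. It held 3718 reads in replicate 1, every one on the plus strand, and 1874 reads in replicate 2, of which 99.9% were. Its reads were spread over 765 and 546 positions, with no position above 4.03% and 2.94%, so a few abundant sequences do not make up this window. Of these reads 99.4% and 98.9% had several places, so their listed place can differ. The other windows among the 10 were bases 83001 to 84000, 85001 to 86000, 112001 to 113000, 8001 to 9000, 87001 to 88000 and 4001 to 5000, with 878 to 2698 RPM in replicate 1 and 1666 to 3515 RPM in replicate 2. All of these were both-strand except bases 85001 to 86000, where 9.34% and 8.85% of reads lay on the plus strand.

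Over the whole region the minus strand held more reads. The plus share was 42.6% in replicate 1 and 30.9% in replicate 2, or 36.8% ± 8.25 (SD, n = 2). In the rest of the series without the block it held 48.4% and 43.03%. Counted as distinct positions the plus share of the region was 39.3% and 41.4%, nearly the same in both libraries. More reads lay on the minus strand in both libraries in 52 of the 72 dense windows, against 60.4% of the 606 dense windows of the series. The plus strand led in both libraries in 12 of the 72, against 28.9%. From window to window the plus share was alike in the libraries, with Pearson r = 0.94 and Spearman rho = 0.90 across the 72 dense windows, which share their library and are not independent replicates. The minor strand of each window, summed, held 20.1% and 24.9% of the reads, or 22.5% ± 3.37 (SD, n = 2).

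Mapped spans peaked at 23 nt. This span made up 31.7% of the region's reads in replicate 1 and 37.9% in replicate 2, or 34.8% ± 4.402 (SD, n = 2), against 25.5% and 33.9% in the rest of the series without the block. Supercontig 5 had more, with 37.8% and 38.4%. The span of 22 nt held 24.3% and 20.9%, that of 24 nt 21.1% and 21.7%, that of 21 nt 14.2% and 10.7%, and that of 25 nt 8.66% and 8.68%. No other span held more than 0.0771% in either library. In 58 of the 72 dense windows of replicate 1 and 60 of those of replicate 2 the most frequent span was 23 nt. Of the 61 both-strand windows 50 had this mode in both libraries. Within the both-strand windows 23 nt was more frequent on the minus strand, with 37.5% and 40.8%, than on the plus strand, with 31.8% and 34.3%. Counted as distinct positions, 31.6% and 28.6% of the region had 23 nt, so the libraries changed order.

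**Figure D2:**
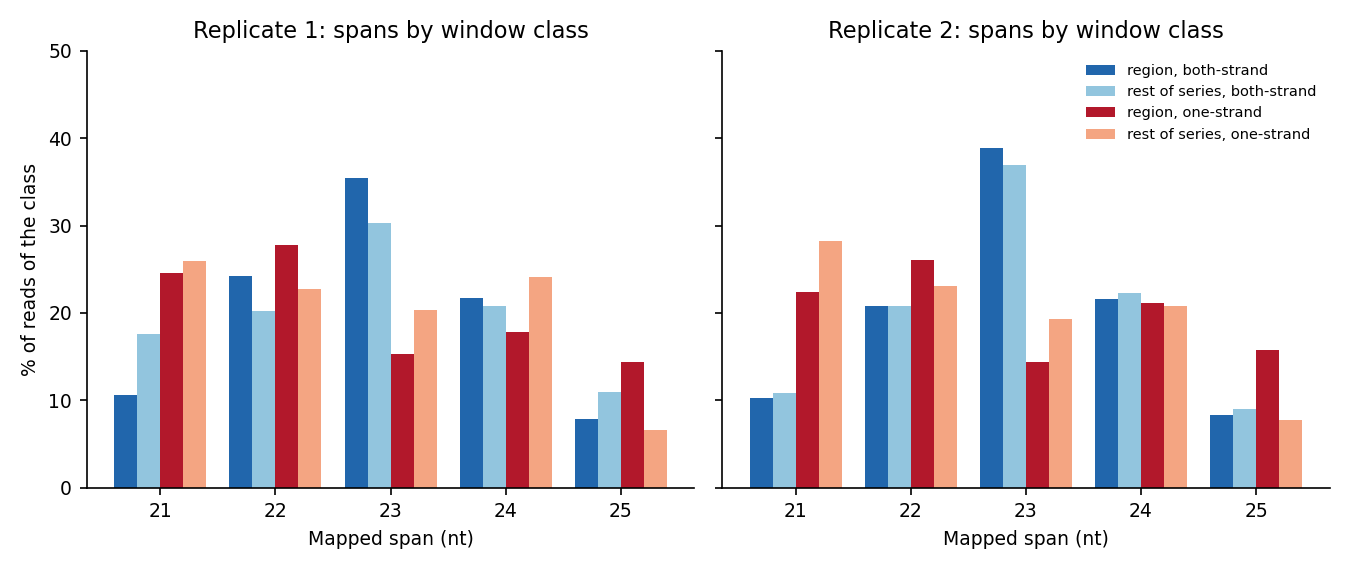
Share of reads at each mapped span from 21 to 25 nt, in percent of the reads of a class of dense windows, for the region beside the rest of the series, in each library. Both-strand windows peak at 23 nt in the region, at 35.5% in replicate 1 and 38.8% in replicate 2, and the one-strand windows do not. The same holds in the rest of the series, where both-strand windows have 30.2% and 36.9% at 23 nt and one-strand windows 20.3% and 19.3%.

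The dense windows fell into 2 kinds by the ratio of the libraries, separated after the values were seen. In 62 windows RPM was higher in replicate 2, by 0.52 to 1.92 on the log2 scale, and in 10 windows it was lower, by −2.46 to −0.37, with no window between −0.37 and 0.52. Over the series 23.1% of dense windows had fewer RPM in replicate 2. Among the 61 both-strand windows of the region the median log2 ratio was 1.40, and among those of the rest of the series 1.44. The 10 windows were bases 68001 to 69000, the 3 windows from 80001 to 83000, the 3 windows from 104001 to 107000, and the windows that start at 112001, 113001 and 115001. They held 33.2% of the region in replicate 1 and 7.92% in replicate 2, a direction that the choice by ratio fixes.

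The 10 windows also had other spans when their reads were summed. Over their summed reads the 23-nt share was 15.6% in replicate 1 and 15.9% in replicate 2, against 39.6% and 39.7% in the other 62 windows. At 21 nt they had 22.1% and 23.9%, against 10.3% and 9.61%. As 21 nt is the shortest span of the labelled sizes, shorter RNA was not covered here. The plus strand held 70.4% and 68.9% of their summed reads, against 28.6% and 27.5% in the other windows, but window by window the 10 were evenly split. Reads of the plus strand led in 5 of them and reads of the minus strand in 5, in each library, whereas the minus strand led in 48 and 54 of the other 62. Reads with several places made up 99.7% and 98.8% of the summed reads, against 73.2% and 72.9%. The median window differed less in this, with 99.9% and 99.5%, against 94.0% and 93.7%. Each position had on average 8.80 and 8.24 reads in the 10 windows, against 2.31 and 5.44 in the others. Whether placement among several copies has a part in the ratio was not tested.

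**Figure D3:**
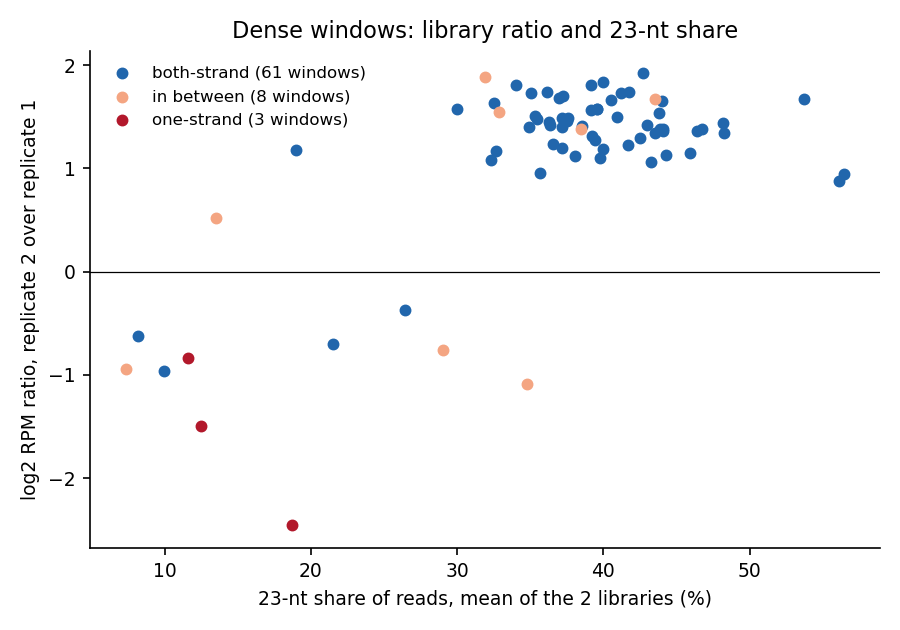
Each point is a dense window of 1 kb: log2 ratio of RPM in replicate 2 over replicate 1 against the mean 23-nt share of the libraries in percent, coloured by strand class. A cloud of mainly both-strand windows lies at a log2 ratio of 0.88 or more and mostly around 40% of 23-nt reads, and 10 windows lie below 0, all 3 one-strand windows among them. The in-between window at bases 117001 to 118000 lies apart from both, at 0.52, with 11.3% and 15.7% of 23-nt reads in replicates 1 and 2.

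Some single windows of this second kind had uneven spans that differed between the libraries. At bases 105001 to 106000, 21 nt held 59.5% of 1088 reads in replicate 1, and 25 nt held 43.2% of 1568 reads in replicate 2. The leading position of that window had 54.6% and 38.8% of its reads. At bases 106001 to 107000, 22 nt held 38.9% in replicate 1 and 73.6% in replicate 2, and 1 position held 70.9% of the reads in replicate 2. At bases 113001 to 114000, 22 nt led in replicate 1 with 38.5% and 21 nt in replicate 2 with 43.2%. There 216 and 338 positions held the reads, and the leading one had 20.1% and 9.64%.

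Most reads of the region had several equally good places. In replicate 1, 82.4% of reads had a mapping score of 0, and 75.5% in replicate 2, or 78.95% ± 4.87 (SD, n = 2), against 72.4% and 69.5% in the rest of the series without the block and 41.3% and 41.7% on supercontig 5. The share varied widely along the region, from 0% to 100% in replicate 1 and from 0.0226% to 100% in replicate 2 over the dense windows, and it was almost the same in both libraries (Pearson r = 0.99 across the 72 windows, which are not independent). In 44 dense windows at least 90% of the reads had several places in both libraries, and in 9 windows fewer than 50% had.

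**Figure D4:**
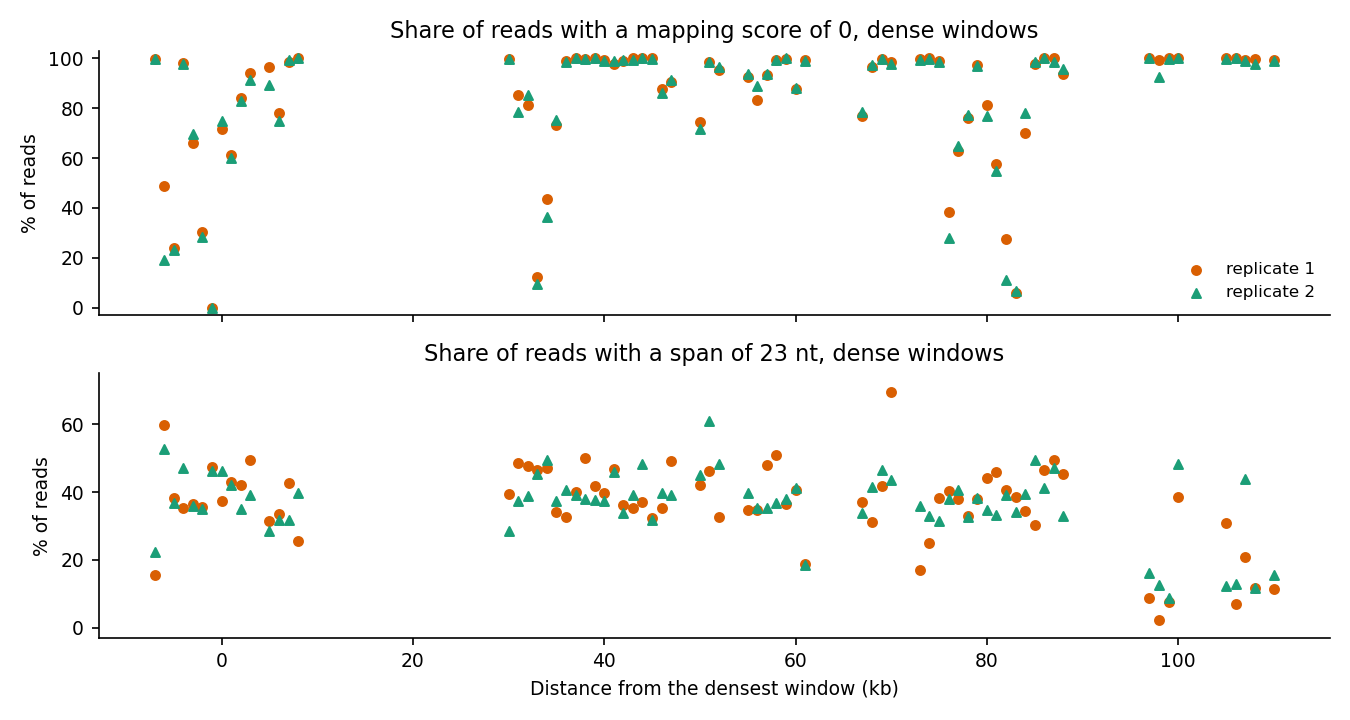
Share of reads with a mapping score of 0 (upper plot) and with a span of 23 nt (lower plot), in percent of the reads of each dense window, for both libraries, by distance in kb from the densest window. The score-0 share dips in the same windows in both libraries, and the 23-nt share lies under 25% in both libraries mostly in the windows far to the right.

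Those 9 windows give the surest positions. They are bases 1001 to 3000, 5001 to 7000, 40001 to 42000, 83001 to 84000 and 89001 to 91000. All of them were both-strand, as were 61 of all 72 dense windows. The 9 windows held 6201 reads in replicate 1 and 42967 in replicate 2. Their plus share was 32.4% and 33.1%, and 43.1% and 40.05% of their reads were of 23 nt. Bases 6001 to 7000 had no read with several places among 617 in replicate 1, which allows a share of up to 0.486%, and 0.0226% among 4432 reads in replicate 2. The plus share there was 11.7% and 11.8%, and 47.5% and 46.1% of reads were of 23 nt. Bases 40001 to 41000 were the only ones of the 9 where the plus strand led, with 66.5% and 67.7%. All 9 windows had more RPM in replicate 2, by 0.879 to 1.504 on the log2 scale. Most dense windows of the region did so too, 62 of 72.

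Over the whole region, reads with a single best place had strand and 23-nt shares that were alike in the libraries, more so than reads with several. Their RPM was not alike, with 8945 in replicate 1 and 24938 in replicate 2, against 41862 and 76877 for reads with several. Pair ratios, given below, were not closer for reads with a single best place either. On the plus strand lay 27.8% and 28.3% of the reads with a score above 0, and 45.8% and 31.8% of those with a score of 0. A span of 23 nt was seen in 40.4% and 39.3% of the first, and in 29.8% and 37.4% of the second. Of the positions of replicate 1 with a score above 0, 78.4% were also listed in replicate 2, and 25.3% of those of replicate 2 in replicate 1. For a score of 0 these shares were 48.5% and 15.7%. A sequence with several places can be listed at another copy in the other library, so a missing position need not mean a missing sequence.

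Opposite-strand reads of the region overlapped most often as they do in a duplex with 3′ overhangs of 2 nt on both sides, the product that Dicer leaves. Pairs of positions with equal span and opposite strand were sorted by the start of the minus-strand position minus that of the plus-strand one, where −2 nt gives these overhangs. Replicate 1 had 300 such pairs, against a mean of 178 ± 22.98 (SD over the 20 other differences within 10 nt), a ratio of 1.69. In replicate 2 the count was 2582, and its neighbours averaged 1747 ± 116, which makes 1.48. The mean ratio was 1.58 ± 0.148 (SD, n = 2). In both libraries the count was the highest of all differences up to 50 nt on either side. In the rest of the series without the block the ratio was 1.61 and 1.38, and on supercontig 5 it was 1.64 and 1.38. In the terminal part of supercontig 4 it was 1.08, from 10 pairs, and 1.23, from 149 pairs.

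The excess was present at every span from 21 to 25 nt, and at each of them −2 nt had the highest count among 21 differences. At 23 nt, the most frequent span, the ratio was lowest, with 1.42 and 1.29. At 25 nt it was highest, with 2.03 from 24 pairs in replicate 1 and 1.97 from 296 pairs in replicate 2. Pairs among reads with a score above 0 had a ratio of 2.17 and 1.69, and pairs among reads with a score of 0 had 1.60 and 1.49. At a difference of +2 nt, the same overlap with 5′ overhangs, the ratio was 0.849 and 0.925, and for fully overlapping positions it was 0.748 and 0.9002.

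Pairs with these overhangs came mostly from the loci at bases 1 to 16000 and 80001 to 96000, as did pairs at other differences. The first had 148 and 998 pairs, with ratios of 1.78 and 1.48, and the second had 100 and 730 pairs, with 1.94 and 1.52. At the other differences within 10 nt the first averaged 83.05 and 672 pairs and the second 51.45 and 481. The whole region averaged 178 and 1747 there. At bases 37001 to 55000 replicate 1 had 25 pairs against a mean of 22.6 ± 5.36 (SD over 20 differences), which lies within that spread, and replicate 2 had 409 against 305 ± 25.4. The 10 windows with fewer RPM in replicate 2 had 1 pair in replicate 1, against a mean of 4.35, and 28 in replicate 2, against 25.1 ± 6.37, so an excess was not detectable there. Of the positions of the region 4.002% and 11.2% had a partner at −2 nt, and these carried 4.88% and 14.0% of the reads. Pairs were also frequent at the other differences, as given above, so these are not shares of duplexes. The share of positions with a partner at another difference was not computed. Whether the depth of the libraries has a part in the difference between the libraries was not tested.

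**Figure D5:**
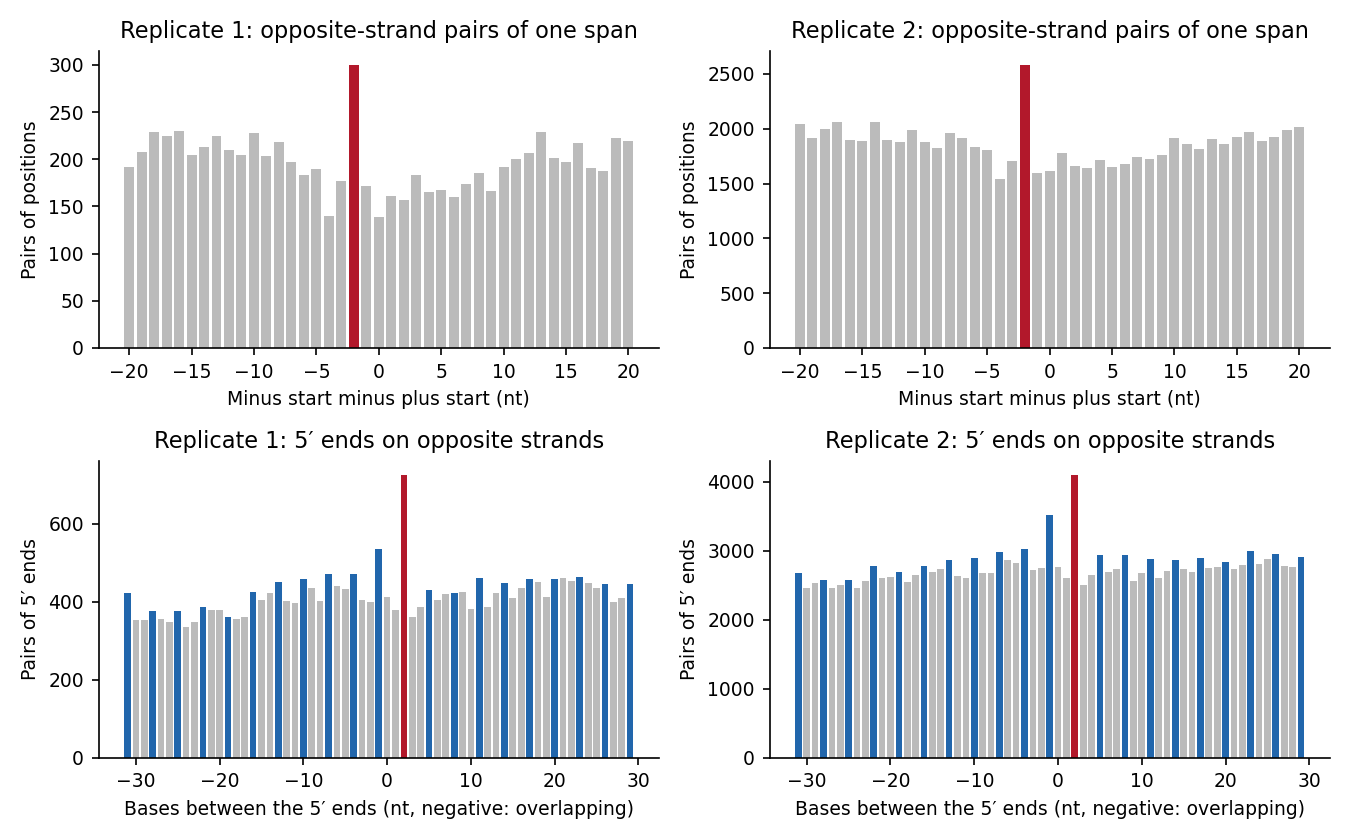
Upper plots: number of pairs of positions of the same span on opposite strands, by the difference of their starts in nt, with −2 nt in red. Lower plots: number of pairs of 5′ ends on opposite strands by the bases between them in nt, with 2 nt in red and other gaps in steps of 3 nt from it in blue, where red stands highest in both libraries and blue mostly above its neighbours.

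Diverging 5′ ends on opposite strands lay most often with 2 nt between them, whatever their spans. There were 725 such pairs of ends in replicate 1, against a mean of 421 ± 40.4 at the 20 nearest gaps, and 4102 in replicate 2, against 2797 ± 222 (SD over gaps). That is a ratio of 1.72 and 1.47, and the highest of 81 gaps in both libraries. With an overlap of 1 base there were 534 and 3514 pairs. This overlap and the gap of 2 nt belong to a series in steps of 3 nt. At the 25 other gaps of that series, the mean was 1.07 and 1.06 times that of the remaining gaps, and the count was higher than at both adjoining gaps for 20 of them in replicate 1 and 24 in replicate 2. In the rest of the series without the block the same ratio was 1.06 and 1.04, so the step was not seen in the region alone. On the same strand, 5′ ends at distances of 6 to 60 nt that are multiples of 3 were 1.05 times as frequent as at other distances in each library. In the rest of the series without the block this ratio was 1.04 and 1.03.

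Positions followed each other on the same strand without a gap more often than at nearby distances. A second 5′ end lay directly after the last base of a position 2737 times in replicate 1, against a mean of 2278 ± 73.3 at the 10 other distances within 5 nt, and 13851 times in replicate 2, against 12196 ± 294 (SD over distances). These are ratios of 1.20 and 1.14.

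The 5′ ends were used more repeatedly than the 3′ ends. Reads of the region began at 10545 different 5′ ends and stopped at 12284 different 3′ ends in replicate 1, and in replicate 2 these were 27528 and 33344. Among ends with at least 20 reads, a 5′ end was shared by 3.33 and 3.35 different spans on average, and a 3′ end by 2.76 and 2.31. The leading span held a median of 68.1% and 70.0% of the reads of such a 5′ end, and 86.04% and 90.9% of those of a 3′ end. Sequences with the same 5′ end thus varied in their 3′ end more than the reverse.

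Most single positions held few reads. Each position had 3.01 reads on average in replicate 1 and 5.405 in replicate 2, and 65.4% and 52.2% were seen once. The 5 positions with the highest mean RPM show how unlike the libraries were at this scale. First came the minus-strand position of 23 nt at bases 1954 to 1976, with 146 and 1325 reads (164 and 539 RPM), all of them with a score above 0. It held 11 and 50 different sequences that map to the same bases. Another of the 5 was a minus-strand position of 23 nt at bases 7564 to 7586, with 117 and 1345 reads, all with several places. The other 3 were positions seen in 1 library alone. Bases 106095 to 106116 on the plus strand had 1726 reads in replicate 2 and none in replicate 1, where the position 1 nt to the left had 442. Bases 105335 to 105355 on the minus strand had 594 reads in replicate 1, and bases 115098 to 115118 on the plus strand had 585, and none in replicate 2. These 3 consist of sequences with a score of 0, for which the listed place can differ.

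Across all 120 windows, log2(RPM + 1) of the libraries had Pearson r = 0.98 and Spearman rho = 0.95, which largely reflects windows with and without reads. Over the 72 dense windows r was 0.75 and rho 0.81, and over the 61 both-strand windows 0.89 and 0.92. All windows of a library share its depth and its preparation, so these are descriptions of agreement and carry no p.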

How the data were processed

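Small RNA was sequenced by the authors in 2 libraries of wild-type strain yFS275. From 40 µg of total RNA, molecules of 10 to 40 nt were enriched per the labels' protocols, and ligation needed a 5′ monophosphate and a 3′ hydroxyl. BWA was used per the submitters' processing notes, and neither version, options nor assembly is given in the sources used here. The deposited lists name each distinct sequence by a rank and a whole number, read here as its raw count of reads, with 1 aligned place and a mapping score from 0 to 37. The score values are as deposited by the authors. Totals were 3086539 and 3492513 reads.

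Starts were changed to count from 1. Sequences at the same start, end and strand were summed into 1 position. Windows, classes, loci, pairs and ends were computed in Python 3.11.15 with pandas 2.3.3, NumPy 2.4.6 and SciPy 1.17.1. Pair counting was tested on simulated positions. No pairs, windows or loci were tested against chance. Named windows and positions followed a rule: the 10 windows and 5 positions with the highest mean RPM, and every locus. The region, its limits and these measures were chosen with earlier results of these data known, and the runs, library-ratio kinds, 3-nt steps and windows with few score-0 reads after seeing the values. Alternatives covered score, counting, window size, thresholds, the block, pair neighbours and the pseudocount of 1 RPM.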

Additional observations from a re-analysis of the deposited data

Results flagged for a closer look

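Reads shorter than the labelled sizes were left out of every value above. In the first 120 kb of supercontig 4 they numbered 10 in replicate 1 and 30 in replicate 2, of 19 and 20 nt, more than the 3 reads that a count of 0 allows. They made up 0.0221% and 0.0120% of the reads of the region, against 0.183% and 0.192% of all reads of the libraries. No control library was at hand.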

How the results depend on the processing

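Of 53 alternative values, 39 stayed within the spread of the libraries or within 1.5 times a count, and 14 moved. For the correlation of the libraries a fixed limit was used instead. Of the 39, 20 came from leaving out 1 library, where a value judged by the SD cannot move. Among the other settings 19 stayed and 14 moved. With reads of a score above 0 only, also in the totals for RPM, dense windows numbered 25 and both-strand windows 21. Windows holding 50% of the reads then numbered 5. The 23-nt share was then 39.8%, the plus share 28.1%, the minor-strand share 26.02% and the pair ratio 1.93. With the block left in the totals, 42 windows were dense and 36 both-strand. With each position counted once, 20.5 windows held 50%, 30.1% were of 23 nt and the minor-strand share was 33.8%. Windows of 500 nt gave 20.5 for 50% of the reads, and pairs weighted by reads gave a ratio of 1.89. The cause of these moves was not tested beyond what each setting leaves out.

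Without either replicate in turn, the share in the region ranged from 5.08% to 10.2%, the density ratio from 5.16 to 10.9, dense windows from 72 to 82 and both-strand windows from 62 to 74. With 2 libraries the value of each lies within their SD by construction. No paired analysis was possible because there is 1 group. Replicate 1, with fewer reads, gave fewer pairs, and counts at single loci there can lie within the spread of neighbouring differences.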
